A study of Mus musculus with 8 samples.

Results

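Genes of glycolysis and of the hypoxia response were followed in Ly6C-high monocytes and macrophages sorted from mouse pancreatic tumours 1 day after irradiation. The set was a named list of 33 symbols: 17 of glucose uptake and glycolysis, 15 other targets of the hypoxia-inducible factor HIF-1, and Hif1a, which encodes the factor's oxygen-sensitive subunit. A member was taken from the array probe sets that the platform annotation maps to its symbol alone, and from the brightest of them where there were several. This gave 28 members among the 22180 genes measured: 14 of glycolysis, 13 other HIF-1 targets and Hif1a. The other 5 members, Gpi1, Aldoa, Eno1, Bnip3l and Ankrd37, have no probe set mapped to their symbol alone and were not analysed here.

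RNA was measured on 8 Affymetrix arrays, 1 per mouse. The irradiated group was 4 mice whose tumour had received 20 Gy, an ablative dose, and the sham group was 4 mice given a sham treatment. All were 8 week old female C57BL/6 mice carrying a subcutaneous tumour grown for 14 days from cell line 152, a single line from a pancreatic tumour of a KrasLSL-G12D/+, Trp53LSL-R172H/+, Pdx1-Cre mouse. In that model the Pdx1 promoter drives Cre in the pancreatic lineage, so the tumour cells carry the activated alleles and the sorted host cells do not. The cells were sorted as CD45+ CD11b+ Ly6Chi, and Ptprc, which encodes CD45, stood at 11.62 ± 0.09 in irradiated and 11.66 ± 0.05 in sham mice on the log2 scale of the arrays (SD, n = 4 each). The CD11b gene Itgam averaged 11.12 ± 0.12 in irradiated and 10.94 ± 0.18 in sham mice. Ly6c2, a Ly6C gene, stood at 11.76 ± 0.71 in irradiated and 11.55 ± 0.42 in sham mice. Ly6c1, another Ly6C gene, was dim, at 2.88 ± 0.23 in irradiated and 2.61 ± 0.16 in sham mice. Array medians lay between 4.68 and 4.73, and all 28 members had a mean above 4.70, the median of all probe sets. Detection above background was not tested, and 8 arrays bound how precise any difference can be.

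Glycolysis splits glucose into pyruvate in the cytosol and yields ATP without oxygen, and lactate dehydrogenase turns the pyruvate into lactate. HIF-1 is a pair of subunits whose alpha subunit is hydroxylated by oxygen-dependent prolyl hydroxylases and then degraded. When oxygen is scarce it persists, binds short DNA sites with the core letters ACGTG or GCGTG and raises the transcription of glucose transporters, glycolytic enzymes, mitophagy receptors and its own hydroxylases. Macrophages in poorly perfused parts of tumours are known for this programme, and activated myeloid cells also use it with oxygen present.

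The promoters of the members show where that factor's core letters lie, and the stretches that hold most of them are given here. RefSeq promoters (build GRCm38.p6) were at hand for 26 of the 28 measured members, with 34 start sites. ACGTG and GCGTG were searched on both strands in the 250 bases before each start, and overlapping matches were merged into 1 site. At least 1 site was found in 76.5% of the 34 promoters, against 38.6% of all 32817 promoters of the same length. ACGTG was found in 47.1% of the members' promoters against 16.6% of all promoters, and GCGTG in 52.9% against 28.1%. Both motifs hold the dinucleotide CG, of which the members' promoters had a median of 15 and all promoters a median of 6, and the part of that difference in the counts was not tested. The first pair of sequences is from glycolysis, Ldha with 3 sites from 5 matches and Pfkp with 3 sites. The second pair is from the other targets, Bnip3 with 4 sites and Hilpda with 3, where Pfkp and Hilpda were taken from members with equal counts. Pgk1, with 2 sites, was added outside that rule as a textbook hypoxia-responsive promoter. Each runs 5′ to 3′ on the gene's strand, with the matches in capitals.
Ldha, chr7:46845554-46845803, plus strand: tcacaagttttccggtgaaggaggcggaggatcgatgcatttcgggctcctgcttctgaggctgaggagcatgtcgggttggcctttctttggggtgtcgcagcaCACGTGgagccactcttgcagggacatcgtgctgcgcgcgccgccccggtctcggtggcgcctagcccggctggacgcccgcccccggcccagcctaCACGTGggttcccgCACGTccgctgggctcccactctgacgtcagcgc
Pfkp, chr13:6648772-6649021, minus strand: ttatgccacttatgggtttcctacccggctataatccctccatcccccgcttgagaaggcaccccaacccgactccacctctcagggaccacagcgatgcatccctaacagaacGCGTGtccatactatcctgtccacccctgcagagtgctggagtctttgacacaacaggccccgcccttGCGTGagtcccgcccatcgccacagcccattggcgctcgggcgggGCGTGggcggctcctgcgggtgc
Pgk1, chrX:106186850-106187099, plus strand: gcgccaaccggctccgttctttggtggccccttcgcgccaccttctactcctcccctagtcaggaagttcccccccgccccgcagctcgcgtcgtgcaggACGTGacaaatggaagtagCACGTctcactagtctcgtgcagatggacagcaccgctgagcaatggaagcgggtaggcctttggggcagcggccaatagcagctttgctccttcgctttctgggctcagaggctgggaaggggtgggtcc
Bnip3, chr7:138909507-138909756, minus strand: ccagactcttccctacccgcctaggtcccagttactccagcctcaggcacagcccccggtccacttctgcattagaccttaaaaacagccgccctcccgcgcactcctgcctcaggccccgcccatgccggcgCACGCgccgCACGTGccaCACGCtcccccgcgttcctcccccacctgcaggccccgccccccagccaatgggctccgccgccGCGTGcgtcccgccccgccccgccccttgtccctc
Hilpda, chr6:29272376-29272625, plus strand: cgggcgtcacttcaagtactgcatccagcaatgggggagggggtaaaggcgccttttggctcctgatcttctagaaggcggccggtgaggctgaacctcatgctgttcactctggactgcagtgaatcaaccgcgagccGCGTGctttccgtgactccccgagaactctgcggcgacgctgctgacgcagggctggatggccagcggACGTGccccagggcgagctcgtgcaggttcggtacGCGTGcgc

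In the Ldha sequence 2 of the sites read CACGTG, which matches ACGTG on both strands. In Pgk1 a forward and a reverse match stand close together, and in Bnip3 3 of the sites lie within a short GC-rich stretch. A match is a description of the letters and not a bound site.

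The comparison asked which genes of these cells are associated with irradiation of the tumour, and no member passed its test. Of the 14 measured glycolysis genes 7 were higher and 7 lower in irradiated than in sham mice, with a median difference of -0.00068 on the log2 scale. Of the 13 other HIF-1 targets 8 were higher and 5 lower, with a median of 0.01. Over all 22180 genes the median was -0.03, with 42.2% higher and 57.8% lower. In limma with Benjamini-Hochberg adjustment over all genes 0 members passed, and 0% of all genes did. At an unadjusted p under 0.05 there were also 0 members, where 6.07% of all genes lay there, 2.05% higher and 4.03% lower. The groups overlapped for all 28 members, while they did not for 3.68% of all genes. The smallest unadjusted p among the members was 0.134, for Pdk1, and their adjusted p ran from 0.845 to 0.999 in limma. Under quantile normalization 17 members were higher and 11 lower, and the median difference over all genes was 0.0017, against -0.03 with the values as deposited. Of all genes at an unadjusted p under 0.05 in limma, among which were 0 members, 47.7% were then lower, against 66.3% as deposited.

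The 95% intervals set how large a change could have been missed. For 19 of the 28 members the whole interval lay within 0.5 on the log2 scale, a 1.41-fold change, to either side. For 27 it lay within 1, a 2-fold change, and the exception was Slc2a3. The plot of differences shows the widest intervals for Slc2a3, Hilpda and Adm and the narrowest for Pkm and Gapdh. In each of the 28 members the range within at least 1 group was larger than the difference between the groups. A range of single values readily exceeds a difference of means where groups overlap, and the share over all genes was not computed, so this is no trait of the members.

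**Figure D1:**
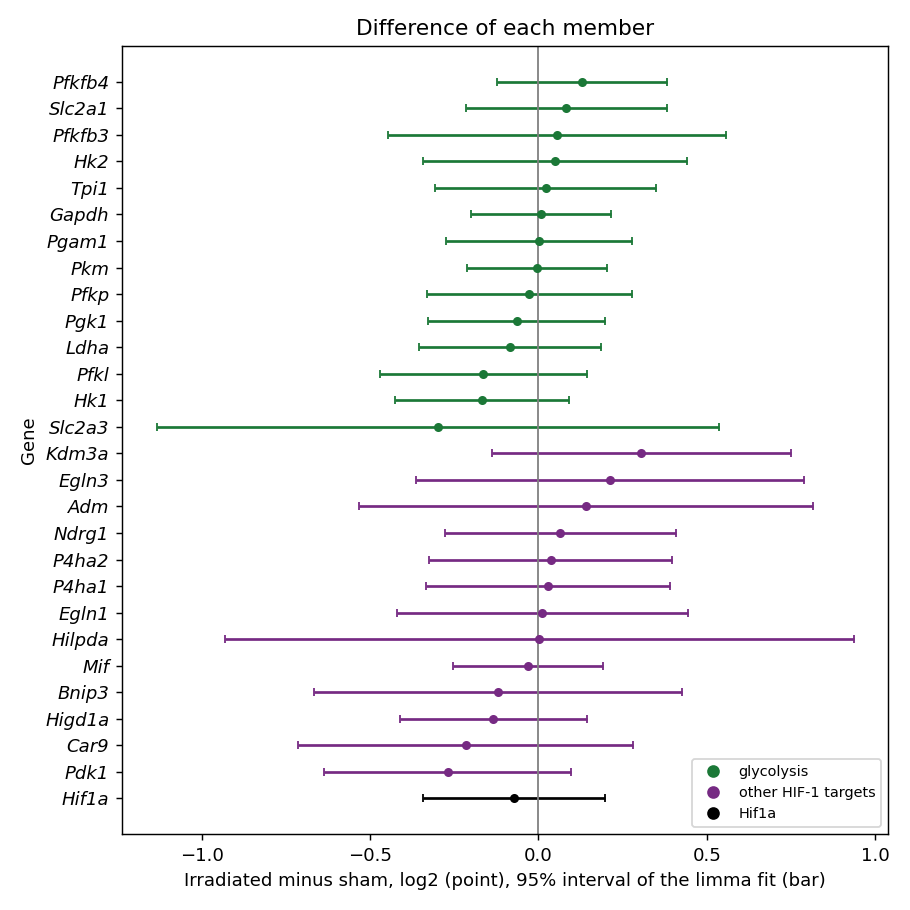
Difference of each of the 28 measured members, irradiated minus sham, on the log2 scale (points), with the 95% interval of the limma fit (bars), for glycolysis genes, other HIF-1 targets and Hif1a. Every interval spans 0, and that of Slc2a3 runs from -1.13 to 0.54.

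Glucose enters these cells through facilitative transporters, of which Slc2a1 encodes GLUT1, the transporter HIF-1 is best known to induce. Slc2a1 stood at 11.13, 11.41, 11.55 and 11.32 in irradiated mice 1 to 4, against 11.38, 11.23, 11.00 and 11.47 in sham mice 1 to 4. The lowest value was that of sham mouse 3 and the highest that of irradiated mouse 3. The difference was 0.08 (95% interval -0.22 to 0.38), and a dimmer probe set of this gene, at a mean of 6.70 in irradiated and 6.82 in sham mice, gave -0.13. Slc2a3 encodes GLUT3, a transporter of high affinity. Its values were 4.90, 5.12, 6.33 and 4.77 in irradiated mice 1 to 4 and 6.41, 4.91, 5.34 and 5.65 in sham mice 1 to 4. Irradiated mouse 3 and sham mouse 1 stood well above the others, 1 in each group, and the difference of -0.30 had an interval of -1.13 to 0.54.

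The preparatory steps use ATP to trap and split glucose. Hk1 encodes the hexokinase of most resting tissues, with values of 6.64, 6.40, 6.63 and 6.66 in irradiated mice 1 to 4, against 6.65, 6.61, 6.74 and 6.99 in sham mice 1 to 4. It had the smallest p of the glycolysis genes, with a difference of -0.17 ± 0.12 (SE, unadjusted p = 0.182 and adjusted p = 0.857 in limma). Hk2, the inducible hexokinase and a HIF-1 target, averaged 8.82 ± 0.24 in irradiated and 8.77 ± 0.32 in sham mice (SD, n = 4 each). Pfkl, the liver-type phosphofructokinase of the committed step, stood at 7.66, 7.55, 7.90 and 7.95 in irradiated mice 1 to 4 and at 7.94, 7.93, 7.66 and 8.19 in sham mice 1 to 4, a difference of -0.16 ± 0.14 (SE). Sham mouse 4 was highest and irradiated mouse 2 lowest. Its platelet-type counterpart Pfkp differed by -0.03, and the triose phosphate isomerase gene Tpi1 by 0.02.

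Phosphofructokinase is set by fructose 2,6-bisphosphate, which the Pfkfb enzymes make and remove. Pfkfb4 stood at 6.76, 6.71, 6.57 and 6.49 in irradiated mice 1 to 4, against 6.40, 6.40, 6.49 and 6.73 in sham mice 1 to 4. It was the glycolysis gene with the highest difference, 0.13 (95% interval -0.12 to 0.38), and sham mouse 4 lay above irradiated mice 2, 3 and 4. Pfkfb3, the isoenzyme of high kinase activity, averaged 8.52 ± 0.43 in irradiated and 8.46 ± 0.33 in sham mice (SD, n = 4 each).

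The payoff steps return ATP and NADH. Gapdh, the glyceraldehyde 3-phosphate dehydrogenase, stood at 12.21, 12.37, 12.37 and 12.31 in irradiated mice 1 to 4 and at 12.38, 12.26, 12.22 and 12.37 in sham mice 1 to 4. Its whole spread over the 8 arrays was 0.17, and the interval of its difference allows a fold between 0.87 and 1.16. Pkm, the pyruvate kinase of the last step, was as even, with a spread of 0.18 and a fold between 0.86 and 1.15. Pgk1, the phosphoglycerate kinase, stood at 11.25, 11.19, 11.38 and 11.32 in irradiated mice 1 to 4, against 11.34, 11.36, 11.10 and 11.59 in sham mice 1 to 4. Sham mice 3 and 4 were the lowest and the highest of all 8, and the fold lay between 0.80 and 1.15. Pgam1, the phosphoglycerate mutase, averaged 10.02 ± 0.20 in irradiated and 10.02 ± 0.12 in sham mice (SD, n = 4 each), while its second, dimmer probe set gave a difference of 0.28 (95% interval -0.20 to 0.76).

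Ldha, whose promoter is shown above, makes the lactate that glycolytic cells export. It stood at 6.82, 7.03, 7.34 and 7.03 in irradiated mice 1 to 4, against 7.17, 7.06, 7.08 and 7.25 in sham mice 1 to 4. Irradiated mice held both the lowest value, in mouse 1, and the highest, in mouse 3. The difference was -0.08 ± 0.12 (SE), a fold between 0.78 and 1.14. Several glycolytic genes, Gapdh above all, have processed copies in the mouse genome, and 8 further probe sets list Gapdh together with other symbols, so the share of signal from copies cannot be told apart.

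**Figure D2:**
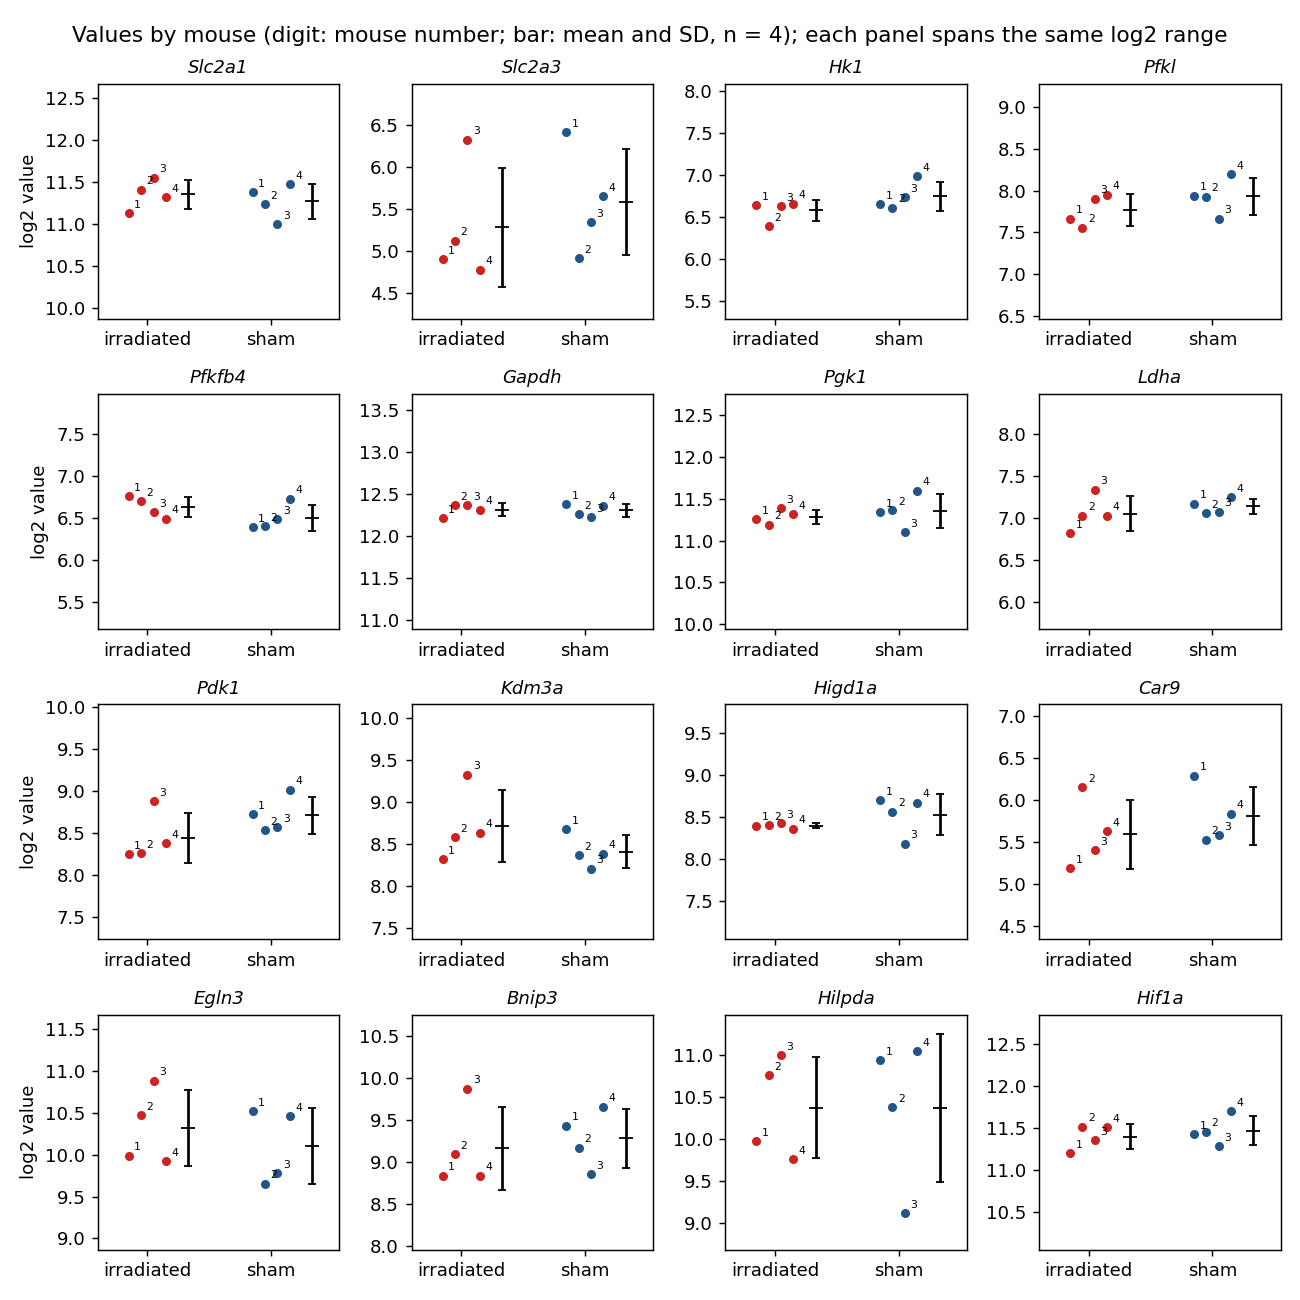
Values of 16 members in irradiated (left, red) and sham mice (right, blue), 1 point per mouse with its number, on the log2 scale, with the mean and SD of the 4 mice beside them and the same span in each panel. The groups overlap in each panel, and irradiated mouse 3 is the highest irradiated mouse for Slc2a1, Slc2a3, Pgk1, Ldha, Pdk1, Kdm3a, Egln3, Higd1a, Bnip3 and Hilpda.

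Among the other HIF-1 targets the largest difference downward was that of Pdk1, a kinase that keeps pyruvate out of the citric acid cycle. Pdk1 stood at 8.25, 8.26, 8.88 and 8.38 in irradiated mice 1 to 4, against 8.73, 8.54, 8.57 and 9.02 in sham mice 1 to 4. Irradiated mice 1, 2 and 4 lay below every sham mouse, and irradiated mouse 3 lay above 3 of them. The difference was -0.27 ± 0.17 (SE, unadjusted p = 0.134 and adjusted p = 0.845 in limma). Without irradiated mouse 3 it was -0.41 with an unadjusted p of 0.0146 and an adjusted p of 0.846 in limma, a setting in which 5.84% of all genes lay under 0.05. Its second probe set gave -0.11.

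The largest difference upward was that of Kdm3a, a histone demethylase that HIF-1 induces. It stood at 8.32, 8.58, 9.33 and 8.63 in irradiated mice 1 to 4 and at 8.68, 8.37, 8.21 and 8.39 in sham mice 1 to 4. Irradiated mouse 3 exceeded all others, and the difference of 0.31 (95% interval -0.14 to 0.75) was 0.10 without it. Higd1a, a mitochondrial protein gene, was even in irradiated mice, at 8.40, 8.40, 8.43 and 8.36 in mice 1 to 4. In sham mice 1 to 4 it stood at 8.71, 8.57, 8.19 and 8.68, with mouse 3 below all irradiated mice and the other 3 above them. Its difference was -0.13, and without sham mouse 3 it was -0.25 with an unadjusted p of 0.0308 and an adjusted p of 0.795 in limma, where 6.23% of all genes lay under 0.05.

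Prolyl hydroxylases mark HIF alpha subunits for degradation and are themselves HIF targets. Egln3, which encodes PHD3, stood at 9.99, 10.47, 10.88 and 9.92 in irradiated mice 1 to 4, against 10.52, 9.65, 9.78 and 10.46 in sham mice 1 to 4. Both groups held a high and a low pair of values, and the difference of 0.21 had an interval of -0.36 to 0.79. Egln1, which encodes PHD2, the main oxygen sensor of the family, averaged 8.42 ± 0.26 in irradiated and 8.41 ± 0.37 in sham mice (SD, n = 4 each). Hif1a itself stood at 11.20, 11.51, 11.35 and 11.51 in irradiated mice 1 to 4 and at 11.43, 11.45, 11.28 and 11.70 in sham mice 1 to 4. Its difference was -0.07 (95% interval -0.34 to 0.20), and a second probe set gave the same sign and size. The protein of HIF-1 alpha is set mainly by its degradation, which these arrays do not measure.

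Bnip3, a receptor that directs mitochondria to autophagy, stood at 8.84, 9.10, 9.88 and 8.84 in irradiated mice 1 to 4, against 9.44, 9.17, 8.86 and 9.66 in sham mice 1 to 4. Irradiated mouse 3 was highest, irradiated mice 1 and 4 and sham mouse 3 were lowest, and the difference was -0.12 ± 0.25 (SE). Hilpda, a lipid droplet protein that HIF-1 induces, was named after its values were seen, as the member with the widest spread. It stood at 9.97, 10.76, 11.00 and 9.76 in irradiated mice 1 to 4 and at 10.94, 10.38, 9.12 and 11.05 in sham mice 1 to 4. Its difference was 0.0033, its interval -0.93 to 0.94, with irradiated mice 2 and 3 and sham mice 1 and 4 high and sham mouse 3 the lowest of all. Adm, the vasodilator adrenomedullin, reached 6.86 in irradiated mouse 3 and 5.07 in irradiated mouse 1, with 5.80 ± 0.19 in sham mice (SD, n = 4).

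Car9, a carbonic anhydrase that acidifies the surroundings of hypoxic cells, stood at 5.19, 6.15, 5.41 and 5.63 in irradiated mice 1 to 4, against 6.30, 5.53, 5.58 and 5.84 in sham mice 1 to 4. Irradiated mouse 2 and sham mouse 1 were highest, and the difference was -0.22 ± 0.22 (SE). Mif, a macrophage cytokine, was even at 12.57 ± 0.10 in irradiated and 12.60 ± 0.10 in sham mice (SD, n = 4 each). The stress gene Ndrg1 differed by 0.07, and P4ha1 and P4ha2, subunits of the collagen prolyl hydroxylase, by 0.03 and 0.04. P4ha2 ran against most of the others, with its highest value, 5.78, in sham mouse 3.

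Many of the members were high or low in the same mice. Irradiated mouse 3 had the highest value of its group for 20 of the 28 members, or 71.4%, where it was highest for 24.9% of all genes. The count was 9 of 14 glycolysis genes and 11 of 13 other HIF-1 targets. Irradiated mouse 1 was the lowest of its group for 13 members, or 46.4%, where it was lowest for 25.5% of all genes. In the sham group mouse 4 was highest for 16 members and mouse 1 for 9, against 33.6% and 20.8% of all genes. Sham mouse 3 was lowest for 16 members, or 57.1%, against 30.4% of all genes. These are counts of genes that vary together within single mice and carry no test.

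**Figure D3:**
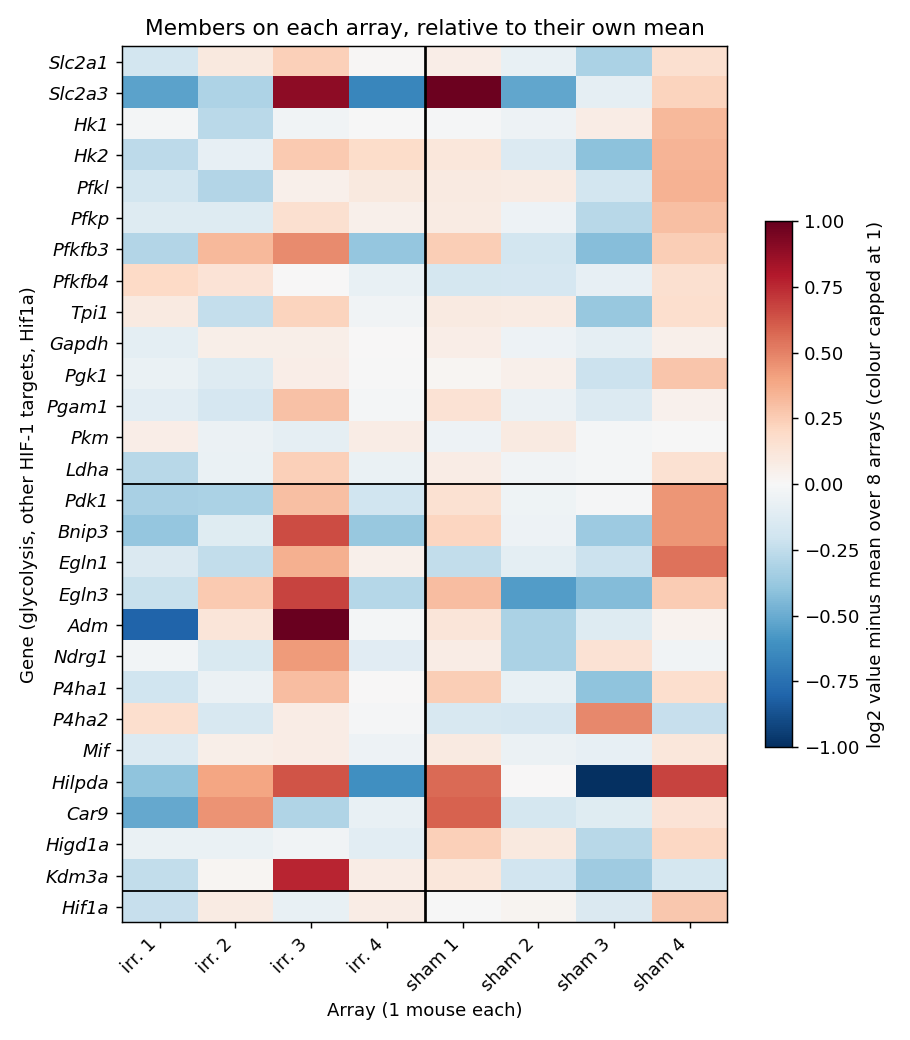
Each of the 28 members on each array as its log2 value minus its own mean over the 8 arrays (colour, capped at 1), with irradiated mice left of the line and sham mice right of it. Irradiated mouse 3, sham mouse 4 and sham mouse 1 are mostly red, and sham mouse 3 and irradiated mouse 1 are mostly blue.

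Averaged per array, the 14 glycolysis genes stood at 9.05, 9.33 and 9.07 in irradiated mice 2 to 4 and below these in irradiated mouse 1, against 9.25, 9.06, 8.95 and 9.33 in sham mice 1 to 4. Irradiated mouse 3 and sham mouse 4 were level at the top. The 13 other HIF-1 targets averaged 8.43, 8.70, 9.06 and 8.55 in irradiated mice 1 to 4 and 8.86, 8.54, 8.45 and 8.88 in sham mice 1 to 4. Both groups of genes put irradiated mouse 3 and sham mice 1 and 4 above the other 5 mice. The group means were 9.11 ± 0.15 in irradiated and 9.15 ± 0.18 in sham mice for glycolysis, and 8.69 ± 0.27 in irradiated and 8.68 ± 0.22 in sham mice for the other targets (SD, n = 4 each).

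Markers of other cell types varied between the same arrays. The 16 measured T and NK cell markers averaged 7.01, 5.54, 5.47 and 6.96 in irradiated mice 1 to 4, against 5.57, 7.87, 8.04 and 5.97 in sham mice 1 to 4. The 4 arrays with the lowest averages of these markers were the 4 with the highest averages of other HIF-1 targets, and 3 of them were among the 4 highest for glycolysis. The 8 tumour and epithelial markers, which ranged from 6.15 to 7.03 in irradiated and from 6.31 to 7.30 in sham mice, had the same 4 lowest arrays, and so had the 8 fibroblast and endothelial markers, from 5.49 to 6.82 in irradiated and from 5.34 to 6.87 in sham mice. The 7 B cell markers, from 4.96 to 5.52 in irradiated and from 5.07 to 6.14 in sham mice, had as their 4 lowest arrays the 4 highest for glycolysis, 3 of which were among the 4 highest for the other targets. The 11 monocyte and macrophage markers, which ranged from 10.34 to 10.70 in irradiated and from 10.46 to 10.59 in sham mice, shared 3 of their 4 lowest arrays with the 4 highest of each group of genes. The 14 neutrophil markers, from 6.24 to 7.62 in irradiated and from 7.15 to 8.59 in sham mice, shared 2 with each. Under 4.70, the median of all probe sets, lay Ncr1 of the T and NK markers, Pdgfra of the fibroblast and endothelial markers and 0 of the tumour and epithelial markers. Also under it lay Blk and Fcer2a of the B cell markers, Ly6g and Elane of the neutrophil markers and Ly6c1 of the monocyte and macrophage markers. In sorted bulk RNA fewer cells of a type and less RNA per cell cannot be told apart. Their part in the mouse-to-mouse pattern was not tested.

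**Figure D4:**
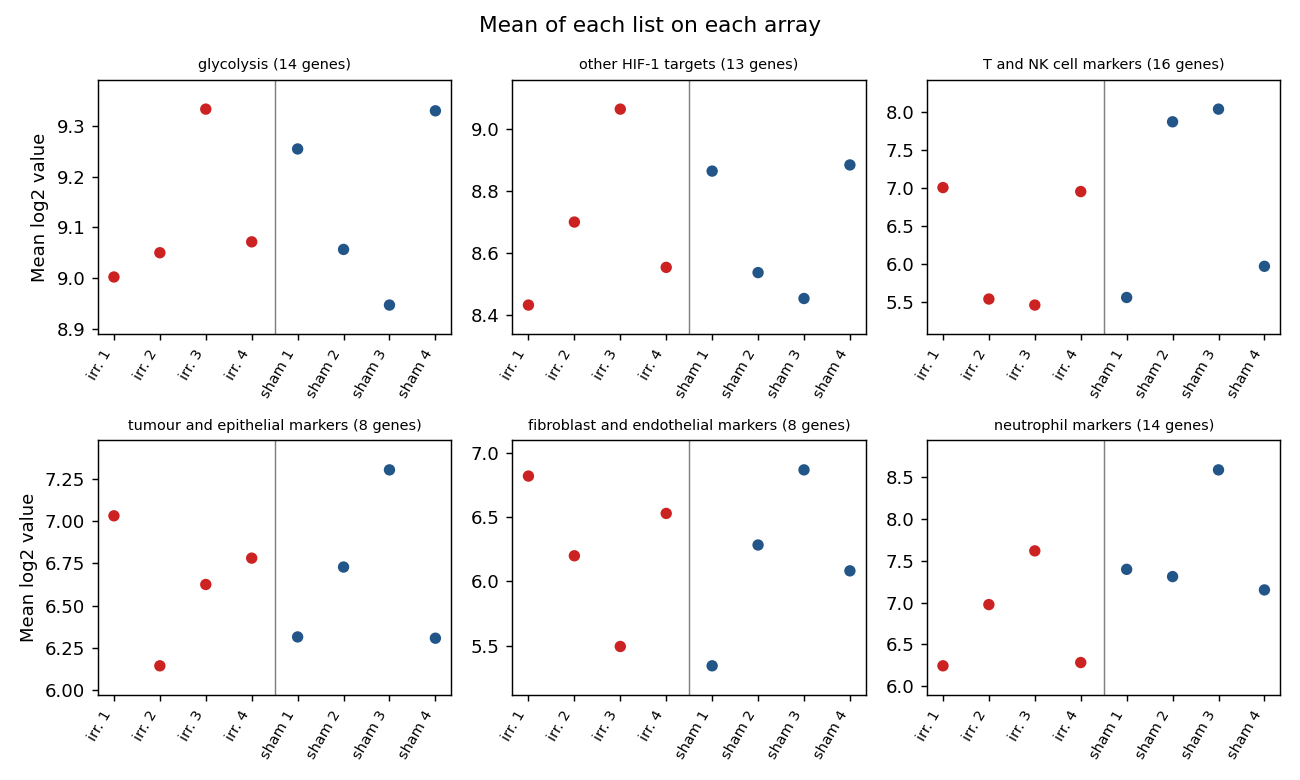
Mean log2 value of the glycolysis genes, the other HIF-1 targets and 4 lists of markers of other cell types on each array, with irradiated mice left (red) and sham mice right (blue) in each panel, and a scale of its own per panel. The other HIF-1 targets are highest in irradiated mouse 3 (9.06), where T and NK cell markers are lowest (5.47).

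With the T and NK marker average as a covariate, 23 of the 28 members were lower and 5 higher in irradiated mice, against 13 lower and 15 higher without it. In limma, 2 members then had an unadjusted p under 0.05, where 7.15% of all genes did. Slc2a3 was at -0.60 with an unadjusted p of 0.0417 and an adjusted p of 0.698 in limma. Pdk1 was at -0.36 with an unadjusted p of 0.0403 and the same adjusted p. With the neutrophil marker average as the covariate instead, 16 members were lower and 12 higher, and 0 had an unadjusted p under 0.05 in limma, where 5.91% of all genes did. With sham mice 2 and 3 left out together 23 members were again lower, and 22 were without sham mouse 3 or without irradiated mouse 3. Without sham mouse 4, in contrast, 19 were higher. Leaving out irradiated mouse 1, 2 or 4 or sham mouse 1 or 2 gave 13 to 17 members lower, nearer the main fit. The balance of higher and lower members therefore shifted with the T and NK covariate and with some mice but not others. No setting gave a member past the adjusted threshold. Over all genes the median difference was -0.030 in the main fit, -0.036 with the T and NK covariate and -0.038 with the neutrophil covariate. It was -0.045 without sham mice 2 and 3, -0.038 without sham mouse 3, -0.031 without irradiated mouse 3 and -0.015 without sham mouse 4. The share of all genes that were lower was not taken in these alternative settings.

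Other genes of the same pathways were taken from 2 lists. Of 28 listed further genes of glucose use, 23 were measured, 8 higher and 15 lower in irradiated mice, with a median of -0.10 and 0 past the adjusted threshold in limma. At an unadjusted p under 0.05 there were 5 of them, 1 higher and 4 lower, where 2.05% of all genes lay there higher and 4.03% lower. Pdk4, a starvation-induced kinase of the same step as Pdk1, stood at 4.52, 4.62, 4.31 and 5.04 in irradiated mice 1 to 4, against 4.09, 3.78, 4.08 and 4.16 in sham mice 1 to 4. The groups did not overlap, as in 1.12% of all genes with irradiated mice above, and the difference was 0.60 ± 0.16 (SE, adjusted p = 0.819 in limma). Bpgm, which makes 2,3-bisphosphoglycerate, stood at 5.10, 4.80, 5.00 and 4.57 in irradiated mice 1 to 4 and at 5.27, 5.44, 5.33 and 6.17 in sham mice 1 to 4. It lay lower in all irradiated mice, as 2.56% of all genes did, with a difference of -0.68 ± 0.20 (SE, adjusted p = 0.819 in limma). Pfkm, the muscle-type phosphofructokinase, was likewise lower without overlap, by -0.26 ± 0.10 (SE). The others of the 5 were Slc16a1, at -0.48 ± 0.20 (SE) with overlap, and Pdhb, at -0.21 ± 0.09 (SE) without overlap. Pdk4 and Pfkm had means under 4.70, and differences of such dim probe sets are uncertain in size.

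Of 31 listed symbols of further hypoxia response genes, 28 were measured, 14 higher and 14 lower, with a median of -0.0039 and 0 past the adjusted threshold in limma. The 1 gene at an unadjusted p under 0.05 was Hif1an, an asparagine hydroxylase that inhibits HIF, and 1 of 28 is no larger a share than the 6.07% of all genes. It stood at 5.49, 4.98, 5.26 and 5.20 in irradiated mice 1 to 4, against 5.50, 5.94, 5.61 and 5.60 in sham mice 1 to 4. Every irradiated mouse lay below every sham mouse, as in 2.56% of all genes, with a difference of -0.43 ± 0.14 (SE, adjusted p = 0.819 in limma). The lipase inhibitor gene Angptl4 differed by 0.21 and the sterol regulator gene Insig2 by -0.24, with overlap of the groups.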

How the data were processed

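Total RNA of sorted cells from 8 mice, 25 ng each, was amplified and hybridised to Affymetrix arrays, per the labels' protocols. Judged by their range, the deposited values are log2, and RMA and Partek were used by the authors to make them, per the submitters' processing notes. No versions or settings of either are named there. Groups came from the sample titles. Of 34365 probe sets, 23521 had 1 symbol in the platform annotation, 1814 several and 9030 none; the brightest row per symbol was kept, leaving 22180 genes. No filter on dim genes was applied. The groups were compared in limma 3.58.1 (R 4.3.3; lmFit and eBayes, two-sided, Benjamini-Hochberg over all genes, threshold 0.05), and the test was tested on simulated data. The shifts planted there were larger than the difference of any member, and the noise was independent between genes. Differences of the size seen in the members were therefore not examined by it. P-values set the difference of the group means against the spread among mice within groups. That spread is pooled over both groups of 4 and drawn by eBayes toward a value shared over all genes. The 6 members with the smallest p in each group of genes, Hif1a, Slc2a1, Gapdh, Pgk1, Ldha and Bnip3 were given in full, with the 3 genes of smallest p per further list. Members, lists and rules were chosen with earlier results of these data known. Promoters are from RefSeq. Mouse numbers are shared between the groups, and the deviations of same-numbered mice correlated at -0.28 to -0.14 over genes. With 1 mouse of each group per number, this cannot tell whether the numbers pair the mice, and the main comparison was unpaired. Plots used matplotlib 3.10.9.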

Additional observations from a re-analysis of the deposited data

Results flagged for a closer look

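Among 86 groups of 4 values examined, 3 held 1 mouse far from the others by Dixon's test, and chance gives about 5% of groups. Irradiated mouse 2 had 6.40 for Hk1, while its 3 group mates had 6.63 to 6.66. Sham mouse 3 had 10.17 for Tpi1, while the other sham mice had 10.63 to 10.72. The same mouse had 5.78 for P4ha2, while the other sham mice had 5.08 to 5.14.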

How the results depend on the processing

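Under all 19 alternatives 0 members of either group of genes passed in limma after adjustment, and the lowest adjusted p of a member was 0.698. Over all genes 0 passed under each alternative, with the exception of 1 gene without irradiated mouse 1, so that the range with each mouse left out was 0 to 1. The median difference of the glycolysis genes was -0.17 with sham mice 2 and 3 left out together, a setting with only 2 sham mice, and ran from -0.09 to 0.02 with each mouse left out in turn. For the other HIF-1 targets it ran from -0.11 to 0.07 with each mouse left out, and was -0.18 without sham mice 2 and 3. None of the 532 values of single members moved by more than the SD between mice, but this count is no test of stability. Leaving out 1 of 4 mice cannot move a difference that far. The dim-gene filter, the test of all rows, the trended variance and the replicate block leave each difference unchanged by construction. Over the settings Slc2a3 ran from -0.75 to 0.04 and Hilpda from -0.62 to 0.23. Up to 12 of the 28 members changed sign in a setting, none at an unadjusted p under 0.05. With the mouse number as a replicate block 0 genes passed, and the medians were -0.00068 for glycolysis and 0.01 for the other targets. That fit left 356 genes higher and 709 lower at an unadjusted p under 0.05, against 454 and 893 without the block. Detection above background was not available, which limits what can be said of dim probe sets.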

Other observations

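Products that hypoxic or activated tumour macrophages are known for were looked at after the values were seen, Vegfa, Arg1 and Nos2 from the list of further hypoxia response genes and Slc16a3 from the list of further genes of glucose use. Vegfa, the main angiogenic factor, stood at 10.38, 10.78, 10.84 and 10.60 in irradiated mice 1 to 4, against 10.61, 10.38, 10.07 and 11.00 in sham mice 1 to 4, a difference of 0.13 (95% interval -0.29 to 0.55). Sham mouse 4 was highest and sham mouse 3 lowest. Arg1, the arginase of alternatively activated macrophages, varied little in irradiated mice, at 11.78, 11.83, 11.79 and 11.70 in mice 1 to 4, and more in sham mice 1 to 4, at 11.67, 11.75, 11.16 and 12.18. Nos2, the inducible nitric oxide synthase, stood at 5.52, 7.20, 7.92 and 7.02 in irradiated mice 1 to 4 and at 7.44, 6.49, 6.29 and 8.01 in sham mice 1 to 4, with irradiated mouse 1 lowest and sham mouse 4 and irradiated mouse 3 highest. Slc16a3, which encodes the lactate exporter MCT4, averaged 8.20 ± 0.11 in irradiated and 8.15 ± 0.32 in sham mice (SD, n = 4 each). Slc16a1, a lactate transporter gene of the same list that was not picked here, differed by -0.48. Vegfa, Arg1, Nos2 and Slc16a3 had groups that overlapped and an adjusted p of 0.930 or more in limma.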
